A study of Mus musculus with 24 samples.

Results

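Smyd3 is a SET and MYND domain protein that carries lysine methyltransferase activity. Work on cancer cells has linked it to histone H3 lysine 4 trimethylation (H3K4me3), the mark of active starts, to methylation of a kinase of the Ras pathway, and to binding of the DNA motif CCCTCC. Adult liver consists mostly of hepatocytes, which secrete plasma proteins and run drug, lipid, bile acid and steroid metabolism, with Kupffer cells, endothelium, stellate cells and bile duct cells beside them.

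The comparison described here is that of untreated livers without intact Smyd3 (KO) against untreated wild-type livers (WT). It answers what loss of Smyd3 changes in liver RNA when no carcinogen has been given. Its members are the 16471 genes, of 37583 in the deposited table, that reach 10 in 3 or more of the 12 RNA libraries of the series. The comparison rests on 6 of the 24 samples of the series, 3 WT and 3 KO livers, each labelled as a separate mouse of strain C57BL6/CBA (the growth protocol names C57Bl6 only), untreated and 8.5 months old. The KO mice carry a gene-trap cassette, with an added splice acceptor, a lacZ-neomycin fusion and a polyadenylation signal, in the fifth intron of Smyd3 in all tissues. They derive from 1 trapped embryonic stem cell clone, and the exons before the cassette are still in the gene. Livers of the same 2 genotypes taken at 8.5 months after a single injection of 25 mg/kg of diethylnitrosamine (DEN), a carcinogen that gives rise to liver tumours in mice, form the groups DEN_WT and DEN_KO, with 3 mice each. They are used below to see whether the differences recur in other mice, and whether the effect of Smyd3 loss differs there. They also count in the filter and enter the same fit, so they contribute to the estimate of the spread behind the p-values of untreated livers. The labels used here give no sex.

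Values are read counts that the authors had normalized and rounded, and they summed to between 23163805 and 28973396 in the 6 libraries. WT libraries correlated with each other with r of 0.964 to 0.978 on the log2 scale, KO libraries with r of 0.957 to 0.978, and WT with KO libraries with r of 0.948 to 0.966. KO replicate 3 stood apart on the second principal component (22.1% of the variance), at 62.7 against -33.1 to 9.12 in the other 5 libraries. The first component (36.8%) placed the WT libraries at -42.0, -39.7 and -24.0 and the KO libraries at 36.7, 65.9 and 3.13. All 10 hepatocyte markers were tested, and their summed values reached 2704258 to 2981216 in WT and 2279059 to 3379001 in KO, led by albumin. In bulk tissue, fewer cells of a type and less RNA per cell cannot be told apart.

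Smyd3 itself lies on mm9 chr1:180882091-181448172, minus strand (ENSMUSG00000055067). Its value was 79, 89 and 59 in the WT libraries and 29, 17 and 22 in the KO libraries. Every KO library was below every WT library, so the libraries match their labels, yet reads remained in all 3 KO livers. The log2 fold change was -1.71 ± 0.41 (SE, n = 3 per group), a 3.33-fold difference of the means, with an adjusted p of 0.065 in limma, which misses the threshold of 0.05. With a pseudocount of 5 in place of 1 the adjusted p was 0.032. In the DEN-treated livers the log2 fold change between the genotypes was -3.13 (adjusted p = 0.00018). Which exons the remaining reads came from is not recorded in the gene totals.

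The number of genes that differed between untreated KO and WT livers depended on how the libraries were weighted. With equal weights, at an adjusted p below 0.05 in limma, 90 genes were higher in KO (0.546% of those tested) and 101 were lower (0.613%), together 1.16%. An unadjusted p below 0.05 was reached by 2492 genes (15.1%), and the median log2 fold change of all tested genes was -0.02. The changes ranged from 0.69 to 5.55 on the log2 scale among the higher genes (median 1.83) and from 0.76 to 7.35 in size among the lower genes (median 1.51). Past a size of 3 on the log2 scale lay 15 higher and 21 lower genes. None of the 6 libraries of a called gene crossed between groups, as was also the case for 2874 genes in all (17.4% of those tested). With library weights estimated from the data, 1192 genes were higher and 1418 lower, among them all 191. Those weights were 4.06, 0.76 and 0.373 for KO replicates 1, 2 and 3. For WT replicates 1, 2 and 3 they were 0.494, 1.71 and 0.772. The KO side of that fit thus rested mostly on KO replicate 1. The counts also depended on single libraries. They were 32 higher and 33 lower genes without WT replicate 2, 27 and 35 without KO replicate 1, 30 and 33 without KO replicate 2, and 262 and 298 without KO replicate 3. Without WT replicate 1 they were 73 and 108, and without WT replicate 3 they were 115 and 74. Of the 191 genes, 20 higher and 27 lower ones were called without any one of the 6 libraries, and no gene of the 191 changed direction in any of the 17 other settings tried. When every library was scaled to the same sum, 110 genes were higher and 59 lower, and the median of all genes moved to 0.097.

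**Figure D1:**
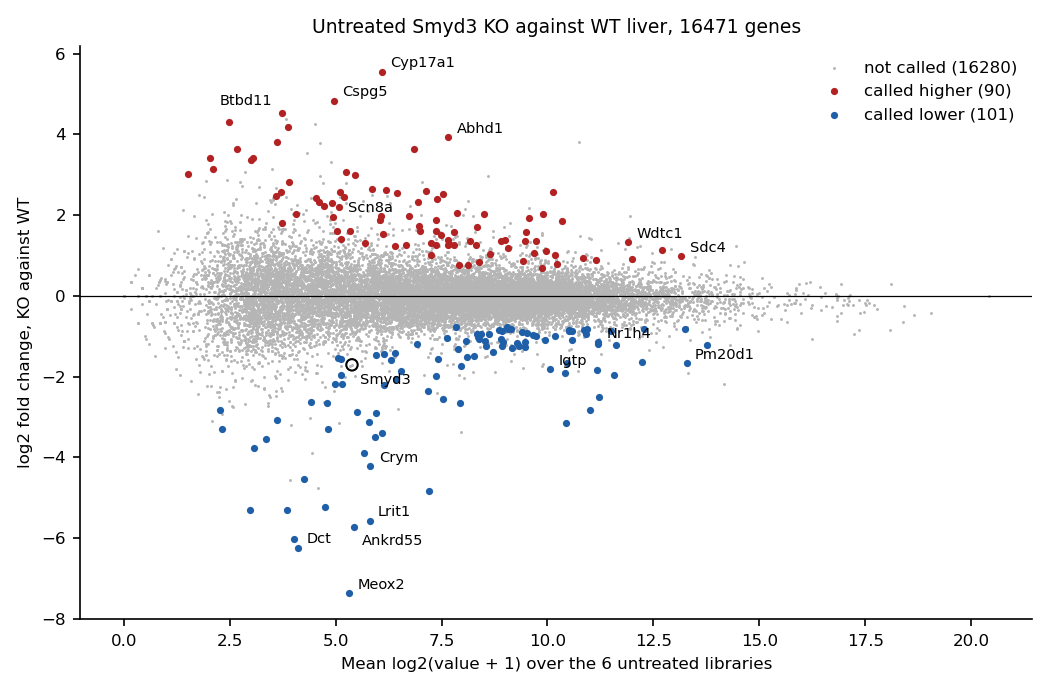
Log2 fold change of KO against WT (vertical axis) against the mean log2(value + 1) of the 6 untreated libraries (horizontal axis) for the 16471 tested genes. Red points are the 90 genes called higher, blue points the 101 called lower, grey points all others. Smyd3 is circled at -1.71. Meox2 at -7.35 and Cyp17a1 at 5.55 are the outermost called genes.

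The largest decrease was that of Meox2, a mesenchyme homeobox transcription factor (mm9 chr12:37835127-37908372, plus strand). Its value was 296, 843 and 524 in WT and 4, 0 and 5 in KO. The gene was clearly read in all WT livers and close to absent in all KO livers. The log2 fold change was -7.35 ± 0.82 (adjusted p = 0.00094). In the DEN-treated livers it was low in both genotypes, with 4, 1 and 5 in DEN_WT and 5, 0 and 0 in DEN_KO.

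Dct, which encodes dopachrome tautomerase of melanin synthesis (chr14:118412014-118451468), had values of 85, 188 and 208 in WT and 3, 1 and 0 in KO. Its groups lay far apart, by -6.23 ± 0.72 on the log2 scale (adjusted p = 0.0012). Ankrd55, an ankyrin repeat protein gene (chr13:113078659-113174210), was at 385, 218 and 355 in WT and 4, 5 and 6 in KO. The KO livers were nearly uniform for it, and the difference was -5.71 ± 0.43 (adjusted p = 4.2e-05). A U2 small nuclear RNA gene lies inside Ankrd55 on the same strand, so some of its reads could belong to either. Lrit1, which encodes a leucine-rich repeat transmembrane protein known from the retina, had 302, 392 and 476 in WT against 10, 6 and 6 in KO. All 3 KO livers were low for it, and the difference was -5.56 ± 0.97 (adjusted p = 0.014), with a call that was lost without WT replicate 2, KO replicate 1 or KO replicate 2 (adjusted p up to 0.070).

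Several of the other strongly decreased genes encode signalling and cell surface proteins. Cdcp1 encodes a transmembrane glycoprotein that Src kinases phosphorylate. Its value was 187, 145 and 178 in WT and 10, 24 and 42 in KO. The lowest WT liver was more than 3 times the highest KO liver, and the log2 fold change was -2.90 ± 0.41 (adjusted p = 0.0035). Eps8l1, a relative of the actin regulator Eps8, stood at 53, 91 and 153 in WT and 6, 2 and 2 in KO. It was low in every KO liver (-4.52 ± 0.75, adjusted p = 0.011), and its call was lost without WT replicate 2 or KO replicate 2 (adjusted p up to 0.059). Gm15494 overlaps it on the opposite strand. Disp2, of the Dispatched family of sterol-sensing membrane proteins, and Arhgef10, a guanine nucleotide exchange factor for small GTPases, fell by 2.66 and by 2.54 on the log2 scale. Both were near the threshold (adjusted p = 0.048 and 0.044), and both lost the call when any one of the 6 libraries was left out (adjusted p up to 0.22 and 0.18).

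Enzymes and binding proteins were also among the 14 most decreased genes. Crym encodes mu-crystallin, which binds thyroid hormone in the cytosol. It was at 349, 212 and 193 in WT and at 12, 4 and 34 in KO. The KO livers differed among themselves but stayed below every WT liver, and the change was -4.21 ± 0.66 (adjusted p = 0.0080). Pla2g4b, a cytosolic phospholipase A2, was at 201, 179 and 232 in WT and 31, 20 and 8 in KO. The groups were again apart, by -3.48 ± 0.37 (adjusted p = 0.00058). Adamts15, a secreted metalloprotease of the extracellular matrix, had 184, 133 and 175 in WT and 20, 16 and 18 in KO, and fell by 3.11 on the log2 scale (adjusted p = 0.0076). Eci3, an enoyl-CoA isomerase of fatty acid oxidation, had 69, 194 and 132 in WT and 19, 20 and 10 in KO, at -2.87 ± 0.50 (adjusted p = 0.015). Its call was lost without WT replicate 2 or KO replicate 1 (adjusted p up to 0.091). The remaining members of this set were Fam25c (-3.40, adjusted p = 0.032) and Fam129c (-3.29, adjusted p = 0.024), whose calls were lost without 5 and 3 of the 6 libraries in turn. For Fam25c these were all libraries but KO replicate 3 (adjusted p up to 0.10), and for Fam129c WT replicates 1 and 2 and KO replicate 1 (up to 0.12). Pgls overlaps Fam129c on the same strand.

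Among the genes that were higher in KO, Cyp17a1 had the largest change. It encodes the steroid hydroxylase and lyase of androgen synthesis and lies on mm9 chr19:46741655-46747464, minus strand. Its value was 27, 6 and 4 in WT and 391, 514 and 501 in KO. Each KO liver had more than 10 times the highest WT value, and the log2 fold change was 5.55 ± 1.05 (adjusted p = 0.024). The adjusted p rose above the threshold without WT replicate 2, WT replicate 3, KO replicate 1 or KO replicate 2 (up to 0.12). In DEN-treated livers Cyp17a1 was at 1755, 34 and 118 in DEN_WT and at 316, 1056 and 604 in DEN_KO, so that the genotypes overlapped there.

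Cspg5 encodes neuroglycan C, a chondroitin sulfate proteoglycan (chr9:110146287-110165079). It was at 8, 1 and 10 in WT and at 220, 232 and 88 in KO. The groups were widely separated, by 4.83 ± 0.60 (adjusted p = 0.0018), and the call stood without any one library. Sema3e, a secreted semaphorin that guides axons and vessels, was at 3, 4 and 1 in WT and 88, 52 and 50 in KO. It was close to absent in WT (4.18 ± 0.86, adjusted p = 0.036), and its call was lost without any 1 library other than KO replicate 3 (adjusted p up to 0.14). Btbd11, a BTB domain protein gene, had 2, 6 and 0 in WT but 39, 430 and 14 in KO. A single KO liver, replicate 2, set its mean, and without it the log2 fold change was 3.15 in place of 4.53 (adjusted p up to 0.12 without one of 5 libraries).

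Abcb1b was also higher in KO. It encodes a P-glycoprotein that exports drugs from cells. Its values were 27, 16 and 25 in WT and 163, 147 and 125 in KO. The KO values were all above 100 and close to each other, and the change was 2.65 ± 0.36 (adjusted p = 0.0029). Scn8a, a voltage-gated sodium channel, was at 17, 13 and 10 in WT and 78, 115 and 64 in KO, higher by 2.58 ± 0.33 (adjusted p = 0.0023). Both calls stood without any one library. Slc2a1, the GLUT1 glucose carrier, had 37, 131 and 130 in WT and 369, 302 and 289 in KO (1.88 ± 0.41, adjusted p = 0.046). It was chosen after its values were seen, and its call was lost without WT replicate 1 or 2 or KO replicate 1 or 2 (adjusted p up to 0.16).

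Tiam2, an exchange factor for Rac, was at 17, 48 and 39 in WT and at 659, 384 and 270 in KO. Tfb1m overlaps it on the opposite strand. The KO livers were all at least 5 times higher than the WT livers (3.64 ± 0.60, adjusted p = 0.011), with an adjusted p of 0.057 without KO replicate 1. Pik3c2b, a class II phosphoinositide kinase, was at 87, 51 and 36 in WT and at 236, 249 and 363 in KO (2.33 ± 0.37, adjusted p = 0.0084). Dclk3, a doublecortin-like kinase, rose by 2.56 ± 0.42 (adjusted p = 0.011), and its call was lost without KO replicate 1 or KO replicate 2 (adjusted p up to 0.067). Arhgef16, another exchange factor for small GTPases, had 12, 24 and 79 in WT and 163, 177 and 207 in KO (2.62 ± 0.54, adjusted p = 0.036), and lost its call without WT replicate 1, WT replicate 2, KO replicate 1 or KO replicate 2 (adjusted p up to 0.15).

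The other strongly increased genes named here were Abhd1, Ube2u and Rsph3b. Abhd1 encodes an alpha/beta hydrolase fold protein and was the most abundant of the large increases, at 43, 48 and 64 in WT and 749, 677 and 966 in KO. It rose about evenly in the 3 KO livers (3.93 ± 0.85, adjusted p = 0.043), but its call was lost when any one library was left out (adjusted p up to 0.16), and Preb overlaps it on the opposite strand. Rsph3b, a radial spoke protein of cilia, was at 75, 74 and 69 in WT and 352, 549 and 299 in KO (2.40 ± 0.32, adjusted p = 0.0029). Ube2u, a ubiquitin-conjugating enzyme, rose by 3.00 ± 0.43 (adjusted p = 0.0039).

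**Figure D2:**
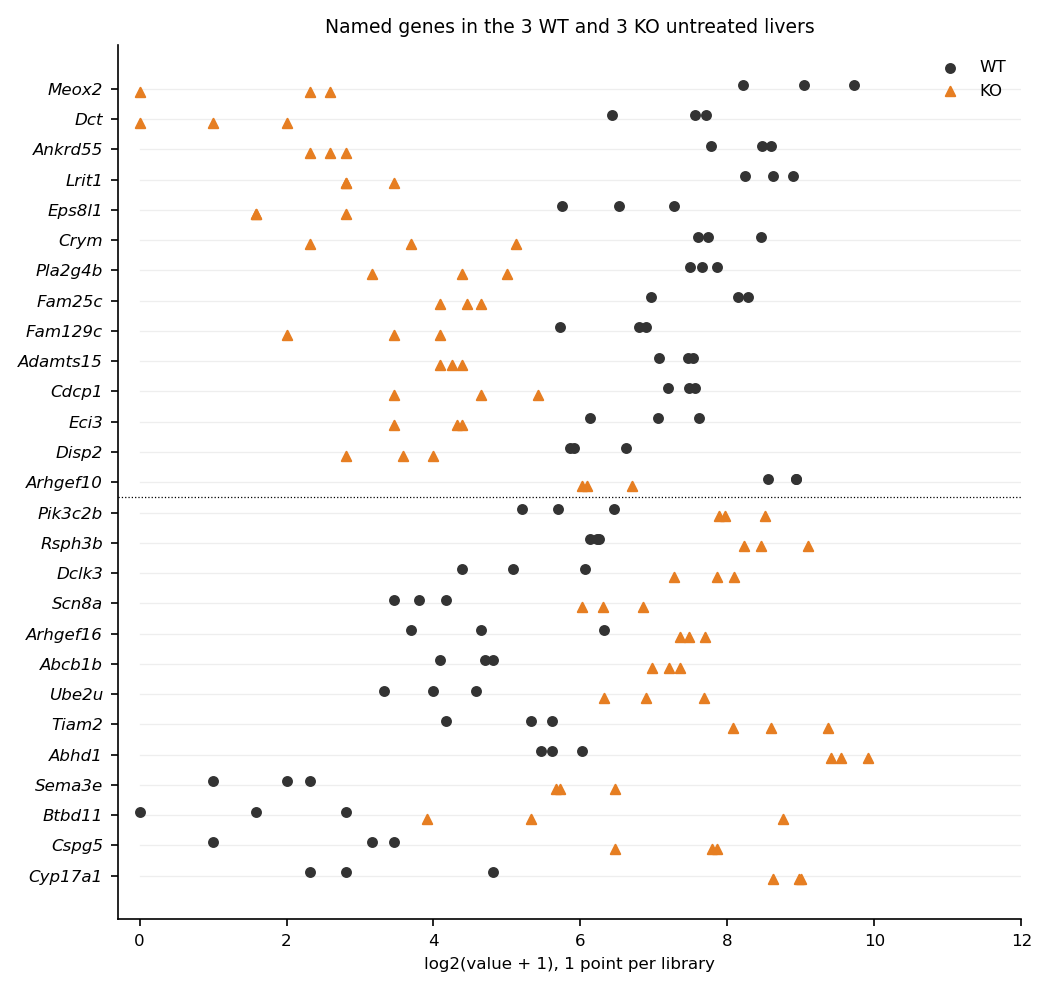
Values of 14 strongly decreased and 13 strongly increased genes in each untreated liver, on the log2(value + 1) scale, with 1 black circle per WT library and 1 orange triangle per KO library. The dotted line divides decreased genes (above) from increased genes (below). In none of these 27 genes do the circles and triangles overlap, and Btbd11 has the widest spread among KO livers (14 to 430).

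Most of the large changes above affected genes of low or middle level, so the abundant genes were also examined. The genes of this paragraph were chosen after their values were seen. Pm20d1, a secreted enzyme that joins fatty acids to amino acids, was at 17538, 18695 and 16851 in WT and at 5790, 6069 and 5028 in KO. Every KO liver was far below every WT liver (-1.66 ± 0.16, adjusted p = 0.00030). Cd59a, which blocks the complement membrane attack complex, had 2329, 2980 and 2620 in WT and 765, 560 and 786 in KO (-1.92 ± 0.20, adjusted p = 0.00058). Rfk, riboflavin kinase, had 2329, 2997 and 2306 in WT and 700, 945 and 755 in KO (-1.67 ± 0.18, adjusted p = 0.00058). Among the increases, Wdtc1, a WD repeat protein gene linked to fat storage, went from 2391, 1971 and 3070 in WT to 6492, 6908 and 5050 in KO (1.32 ± 0.18, adjusted p = 0.0029). These 4 calls stood without any one of the 6 libraries. Sdc4, a heparan sulfate proteoglycan of the cell surface, was at 8860, 4874 and 6375 in WT and at 14013, 12516 and 12103 in KO. All KO livers were higher (0.98 ± 0.21, adjusted p = 0.044), but the call was lost without WT replicate 2, WT replicate 3, KO replicate 1 or KO replicate 2 (adjusted p up to 0.21).

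The interferon response list was the pathway list with the largest number of called members, though not the largest share. Interferon-induced genes encode GTPases, chemokines and antiviral proteins that cells make when interferon receptors signal through STAT factors. Of 40 tested members, 3 fell and 0 rose, 7.5% of the list against 1.16% of all tested genes. Igtp, an interferon-gamma-induced GTPase, was at 1288, 3351 and 1883 in WT and at 568, 514 and 641 in KO. The highest KO liver had less than the lowest WT liver (-1.81 ± 0.28, adjusted p = 0.0076), also without any one library. Irgm2, another GTPase of that family, had 1290, 1288 and 861 in WT and 615, 537 and 564 in KO (-0.98 ± 0.17, adjusted p = 0.015). Rtp4, an interferon-induced receptor chaperone, had 385, 669 and 603 in WT and 250, 221 and 275 in KO (-1.11 ± 0.25, adjusted p = 0.048). Igtp alone kept its call without WT replicate 2, without KO replicate 1 or without KO replicate 2, and without KO replicate 3 the list had 5 members lower. Irgm2 reached an adjusted p of 0.091 and Rtp4 of 0.22 in these fits.

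The median log2 fold change of the interferon list was -0.40 against -0.02 for all tested genes. It was -0.28 against 0.097 when all libraries were scaled to the same sum. Its log2 fold change was below 0 for 34 of the 40 members, and 10 had values that did not overlap between groups, all lower in KO (9.05% of tested genes were of that kind). The summed list was at 21199 to 24744 in WT and 13912 to 20250 in KO. Antigen presentation genes, which interferon also induces, had a median of -0.31 with 0 of 18 called in limma, and 4 lower and 0 higher at an unadjusted p below 0.05. These 4 were 22.2% of the list, against 15.1% of all tested genes in both directions together. H2-D1, a class I heavy chain, was at 15697, 11627 and 12238 in WT and 7197, 6902 and 8904 in KO, with an adjusted p of 0.064. H2-K1, the other classical class I chain here, was at 29312, 26532 and 24941 in WT and 16278, 15346 and 22875 in KO (adjusted p = 0.24). Close copies of these genes may share reads. The markers of T and NK cells summed to 369 to 436 in WT and 341 to 486 in KO, and those of Kupffer cells and macrophages to 9298 to 10301 in WT and 10848 to 12732 in KO. The Kupffer cell and macrophage sums did not overlap and lay higher in KO. Of the 24 markers in that list, 0 were called in limma. At an unadjusted p below 0.05, 1 was higher and 0 were lower (4.17%, against 15.1% of all tested genes). The part of immune cell numbers in the interferon result was not tested.

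Hepatocyte lists held single called members. Nr1h4 encodes FXR, the nuclear receptor that senses bile acids. It was at 2690, 4280 and 3649 in WT and 1609, 1317 and 1833 in KO. All KO livers were below all WT livers (-1.14 ± 0.24, adjusted p = 0.039), and the call was lost without WT replicate 2, WT replicate 3, KO replicate 1 or KO replicate 2 (adjusted p up to 0.19). Nr1h4 was the only called gene of 26 in the bile acid list (median 0.06) and of 26 in the hepatocyte identity list (median -0.09). This was 3.85% of each list, against 1.16% of all tested genes. The bile acid list held 6 higher and 1 lower genes at an unadjusted p below 0.05 in limma. That was 26.9% of it, against 15.1% of all tested genes. Hepatocyte identity held 1 higher and 2 lower genes by that measure (11.5%). Abcb4, the canalicular phospholipid exporter, was at 2961, 2573 and 3438 in WT and at 5572, 5713 and 3648 in KO, and did not pass the test (adjusted p = 0.11). Ces1g, a carboxylesterase with close copies beside it, was the only called member of 44 genes of P450 and drug metabolism (2.27%, list median 0.10). It was at 4655, 4141 and 4348 in WT and 898, 907 and 2209 in KO (-1.85 ± 0.36, adjusted p = 0.026), a call lost without any 1 library other than KO replicate 3 (adjusted p up to 0.12). The P450 list held 4 higher and 2 lower genes at an unadjusted p below 0.05 in limma (13.6%). Nr1i3, which encodes the drug-sensing receptor CAR, stood at 2285, 7578 and 7958 in WT and 12350, 11539 and 10559 in KO (adjusted p = 0.18).

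Growth hormone gives many liver genes a sex bias, and lists of such genes were compared because Cyp17a1 belongs to them. Of 31 female-biased genes, Cyp17a1 was higher and Abcd2 lower, with a list median of 0.53. These were 6.45% of the list, against 1.16% of all tested genes. In limma 6 members were higher and 2 lower at an unadjusted p below 0.05, 25.8% against 15.1% of all tested genes. The summed female-biased list was at 8559 to 10376 in WT and at 12955 to 14921 in KO, without overlap. Cyp17a1 was the reason for the comparison, and its value is part of that sum. Abcd2, a peroxisomal fatty acyl-CoA transporter, was at 48, 75 and 114 in WT and 18, 19 and 11 in KO (-2.18 ± 0.46, adjusted p = 0.039), a call lost without any 1 library other than WT replicate 1 (adjusted p up to 0.14). Of 29 male-biased genes, Cspg5 was higher and none was lower (3.45%, median -0.19), and the summed list overlapped between groups. Its members with an unadjusted p below 0.05 in limma were 2 higher and 4 lower ones (20.7%). Xist, the RNA of the inactive X, did not exceed 29 in any of the 6 libraries, and Eif2s3y, a gene of the Y chromosome, was at least 1032 in each of them. Stat5a and Stat5b act downstream of the growth hormone receptor. Stat5a was at 217, 374 and 305 in WT and 627, 562 and 471 in KO, with an adjusted p of 0.053. Stat5b was at 1360, 1384 and 1524 in WT and 2726, 2202 and 1906 in KO (adjusted p = 0.079). Neither passed, although all KO livers were above all WT livers for both.

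Lists of genes that Smyd3 has been linked to in cancer were compared next. Of 16 genes of epithelial-mesenchymal transition and invasion, Cdcp1 and Tgfbr2 were lower and none was higher, 12.5% of the list against 1.16% of all tested genes (median 0.00). This was the largest share of any list. Tgfbr2, the TGF-beta type II receptor, was at 851, 674 and 567 in WT and 314, 352 and 326 in KO (-1.06 ± 0.22, adjusted p = 0.038), and lost its call without WT replicate 1, WT replicate 2, KO replicate 1 or KO replicate 2 (adjusted p up to 0.13). The lists of growth signalling genes and proto-oncogenes (30 genes, median 0.14), Ras-MAPK signalling (24 genes, median 0.07), oncofetal and tumour markers (24 genes, median 0.28) and mitosis (30 genes, median 0.04) had 0 called members each in limma. At an unadjusted p below 0.05 they had 6 higher and 2 lower, 2 higher and 1 lower, 2 higher and 1 lower, and 0 members, in that order. As shares of the lists these were 26.7%, 12.5%, 12.5% and 0.0%, against 15.1% of all tested genes. Members of the mitosis list summed to 294 to 415 in WT and 297 to 394 in KO. Of 4 other SMYD genes, 0 were called in limma, and 1 higher and 1 lower had an unadjusted p below 0.05. Smyd1, known from muscle, was at 80, 60 and 113 in WT and 181, 182 and 133 in KO (adjusted p = 0.12), and Smyd5 at 1108, 1023 and 936 in WT and 672, 598 and 791 in KO (adjusted p = 0.15). Of 19 writers and erasers of H3K4 methylation, 0 were called in limma, and 3 higher and 1 lower had an unadjusted p below 0.05 (21.1%). The nearest to the threshold was the Y-linked demethylase Kdm5d, at 452, 432 and 347 in WT and 219, 231 and 270 in KO (adjusted p = 0.063).

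Of the other lists, heat shock proteins and chaperones had the lowest pathway median after the interferon list, at -0.35, with 18 of 20 members below 0, 0 called in limma and 4 lower at an unadjusted p below 0.05. These 4 were 20.0% of the list, against 15.1% of all tested genes in both directions together. Hspa8, the constitutive cytosolic Hsp70, was at 40420, 48488 and 41398 in WT and 17132, 29204 and 27066 in KO (adjusted p = 0.21). It did not pass the test although its groups did not overlap. Oxidative stress genes under NRF2 (30 tested, median 0.10) and p53 target genes (24 tested, median 0.13) had 0 called members in limma, with 6 and 5 higher and 0 lower at an unadjusted p below 0.05. These were 20.0% and 20.8% of the lists, all in 1 direction, against 15.1% of all tested genes in both directions together. Gstm3, a glutathione transferase of the former list, was at 652, 405 and 619 in WT and 2215, 1895 and 1020 in KO (adjusted p = 0.065), and Sesn2, a stress-induced sestrin of the latter, at 114, 186 and 203 in WT and 303, 290 and 321 in KO (adjusted p = 0.075). The groups were apart for both genes. Fatty acid oxidation and PPARA target genes (43 tested, median 0.09), lipogenesis genes (30 tested, median 0.18) and cholesterol synthesis genes (25 tested, median -0.09) also had 0 called members, and at an unadjusted p below 0.05 they held 0 higher and 3 lower, 2 higher and 1 lower, and 2 higher and 3 lower genes. The shares were 6.98%, 10.0% and 20.0%, in that order. The 13 lists of cell type markers held 0 called genes among 149 in limma, and 9 higher and 10 lower ones at an unadjusted p below 0.05. That was 12.8% of the markers, against 15.1% of all tested genes. Skeletal muscle markers summed to 18 to 30 in WT and 32 to 41 in KO, and exocrine pancreas markers to 1423 to 2239 in WT and 921 to 2104 in KO, with Cpb1 and Try4 at 0 in all 6 libraries. Of 17 listed pancreas markers, 4 were tested, and Cela1 alone made up nearly all of their sum. It was at 1400, 1755 and 2221 in WT and 2072, 1900 and 893 in KO. Neutrophil markers summed to 155 to 271 in WT and 90 to 197 in KO. Cholangiocyte markers had a median of -0.40 and overlapping sums of 9198 to 18210 in WT and 6475 to 10194 in KO.

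**Figure D3:**
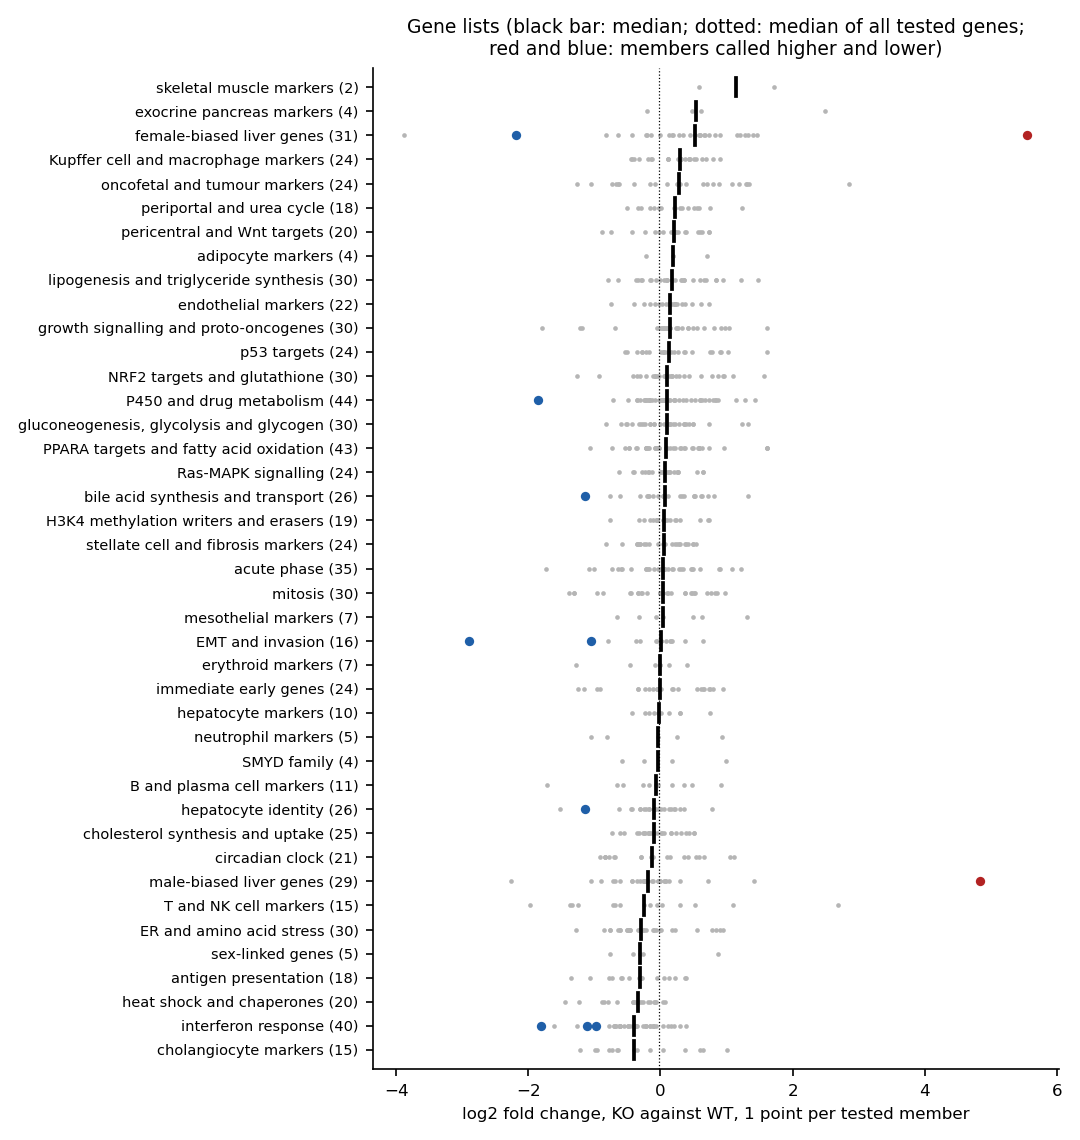
Log2 fold change of KO against WT (horizontal axis) for each tested member of 41 gene lists (rows, with the number of tested members). Black bars are list medians, the dotted line is the median of all tested genes, and red and blue points are members called higher and lower. The interferon list holds 3 blue points and a median of -0.40, and the 13 marker lists hold no coloured point.

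The promoters of 4 changed genes are given because each holds the motif CCCTCC once, on either strand, and had a Smyd3 peak within 1 kb of its start in DEN-treated WT liver. Each is the RefSeq sequence, build GRCm38.p6, from 250 bases before to 50 bases after the gene start, 5′ to 3′ along the gene, with the motif or its reverse complement GGAGGG in capitals. Eps8l1 (chr7:4460447-4460746, plus strand) and Cdcp1 (chr9:123215989-123216288, minus strand) fell in KO, and Btbd11 (chr10:85386564-85386863, plus strand) and Rsph3b (chr17:6948307-6948606, minus strand) rose.
Eps8l1: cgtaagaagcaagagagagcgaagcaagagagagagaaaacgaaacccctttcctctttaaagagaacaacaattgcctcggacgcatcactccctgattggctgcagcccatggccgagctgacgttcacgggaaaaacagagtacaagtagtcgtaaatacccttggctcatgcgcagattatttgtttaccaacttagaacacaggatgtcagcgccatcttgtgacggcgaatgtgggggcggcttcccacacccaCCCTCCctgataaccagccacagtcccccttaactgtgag
Cdcp1: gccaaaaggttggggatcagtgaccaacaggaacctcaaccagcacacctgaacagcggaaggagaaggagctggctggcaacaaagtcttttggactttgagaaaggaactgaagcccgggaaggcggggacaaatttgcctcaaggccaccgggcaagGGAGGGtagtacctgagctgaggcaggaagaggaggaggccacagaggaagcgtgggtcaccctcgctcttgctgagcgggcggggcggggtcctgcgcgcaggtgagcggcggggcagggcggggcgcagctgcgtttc
Btbd11: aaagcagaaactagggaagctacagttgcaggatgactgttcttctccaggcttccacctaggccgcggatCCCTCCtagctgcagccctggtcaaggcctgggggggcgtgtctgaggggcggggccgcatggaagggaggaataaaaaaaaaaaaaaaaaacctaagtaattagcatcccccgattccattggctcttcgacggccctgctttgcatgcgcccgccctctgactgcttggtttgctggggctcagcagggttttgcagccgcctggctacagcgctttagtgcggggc
Rsph3b: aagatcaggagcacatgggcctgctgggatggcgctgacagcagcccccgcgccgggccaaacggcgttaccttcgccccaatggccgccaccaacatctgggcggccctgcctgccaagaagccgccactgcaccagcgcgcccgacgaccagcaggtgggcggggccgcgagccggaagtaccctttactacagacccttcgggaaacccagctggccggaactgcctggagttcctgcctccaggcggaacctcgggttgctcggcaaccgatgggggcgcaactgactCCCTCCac

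The motif was found in 15 of 52 promoters of lower genes (28.8%) and in 26 of 56 promoters of higher genes (46.4%), against 4896 of 10086 promoters of all tested genes (48.5%). Whether the share at lower genes differs from that at all genes was not tested. Their median GC content was 55.2%, against 62.0% for higher genes and 60.3% for all. A match describes letters in the window and not a bound site.

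Smyd3 peaks and H3K4me3 regions were listed for DEN-treated livers only, so their relation to untreated livers is indirect. A Smyd3 peak of the deposited list lay within 1 kb of the start of 54 of 90 higher genes (60.0%, 95% Wilson interval 49.7 to 69.5) and 53 of 101 lower genes (52.5%, 42.8 to 61.9), against 64.2% of all tested genes. Over all levels, neither share at called genes was above that of all tested genes. Among genes with a group mean of 100 to 1000 the share was 60.9% for higher, 50.9% for lower and 74.1% for all tested genes. Over 1000 the shares were 66.7%, 53.1% and 74.1%, in that order. Under 100 the order was reversed, with 53.8% (14 of 26), 56.2% (9 of 16) and 46.2%. H3K4me3 regions of WT livers lay within 1 kb of 65.6% of higher, 67.3% of lower and 70.5% of all genes. Where only 1 of the genotypes had a listed H3K4me3 region within 1 kb, 6 higher genes had it in the KO list only (6.67%) and 3 in the WT list only (3.33%), against 3.60% and 1.72% of all tested genes. Cyp17a1, Sema3e and Tiam2 were among the former. Of the lower genes, 6 (5.94%) had it in the KO list only and 4 (3.96%) in the WT list only, and Cdcp1 was among the latter. The KO list is longer, with 17491 regions against 15579.

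Called genes were compared with their neighbours on the chromosome. Of the 191, 57 (29.8%) had another called gene within 1 Mb, against 21.1% of all tested genes, and with 1 gene kept per name family the shares were 30.3% and 19.9%. On chromosome 19, Sfxn2, Cyp17a1, As3mt and Sh3pxd2a were all higher within 0.891 Mb, where 14 genes were tested. There were 7 runs of 3 or more called genes with starts at most 1 Mb apart. All runs but that on chromosome 19 held both higher and lower genes. As3mt, the arsenite methyltransferase, was at 258, 135 and 166 in WT and 650, 821 and 736 in KO (2.02 ± 0.29, adjusted p = 0.0047). Sfxn2, a mitochondrial carrier, was at 586, 343 and 354 in WT and 1199, 1219 and 1290 in KO (1.57 ± 0.34, adjusted p = 0.042). Its call was lost without any 1 library other than WT replicate 1 (adjusted p up to 0.19). Sh3pxd2a, a scaffold of podosomes, rose by 1.06 ± 0.19 (adjusted p = 0.017), a call lost without WT replicate 1, WT replicate 2, KO replicate 1 or KO replicate 2 (adjusted p up to 0.095). As3mt kept its call in each of these fits. Those named here and not above were chosen after their values were seen.

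**Figure D4:**
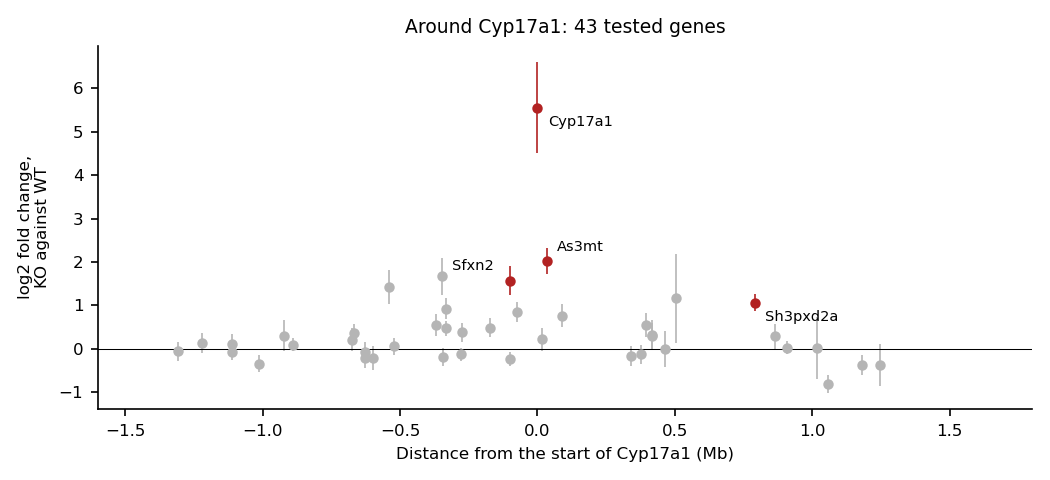
Log2 fold change of KO against WT (points, bars are the SE) for all tested genes within 1.5 Mb of the start of Cyp17a1, by distance in Mb. Red and blue points are called higher and lower. The 4 called genes around Cyp17a1 all lie above 0.

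Near the gene trap itself, 159 genes were tested within 10 Mb of Smyd3, and 3 were lower and 0 higher in limma (1.89% against 1.16% of all tested genes). The same 3 were the only called genes among 266 within 20 Mb (1.13%). At an unadjusted p below 0.05, 17 genes within 10 Mb were lower and 8 higher, 15.7% against 15.1% of all tested genes. Dusp12, a dual-specificity phosphatase, was at 365, 476 and 574 in WT and 137, 215 and 145 in KO (-1.51 ± 0.22, adjusted p = 0.0050), with a call that stood without any one library. Kmo, kynurenine monooxygenase of tryptophan breakdown, was at 5560, 7370 and 7088 in WT and 3977, 3256 and 4078 in KO (-0.82 ± 0.17, adjusted p = 0.033). Tomm40l, of the mitochondrial import channel, fell by 0.82 on the log2 scale (adjusted p = 0.039). The calls of Kmo and Tomm40l were each lost without 4 of the 6 libraries (adjusted p up to 0.15), namely WT replicate 3 and KO replicates 1 and 2 for both, WT replicate 2 for Kmo and WT replicate 1 for Tomm40l. Kmo overlaps Fh1, and Tomm40l overlaps Nr1i3, on the opposite strand.

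The DEN-treated livers gave another comparison of the genotypes in mice that share no sample with the first. There, 16.4% of tested genes were higher and 17.4% lower in DEN_KO, 33.9% in all. Of the 90 genes higher in untreated KO, 66 (73.3%) had the same sign in DEN_KO against DEN_WT, where 47.2% of all tested genes were positive. Of these 90, 28 were called higher again (31.1%, and 1.03% of the genes higher in DEN_KO) and 9 were called lower. Of the 101 lower genes, 82 (81.2%) had the same sign, 56 were called lower again (55.4%, and 1.95% of the genes lower in DEN_KO) and 4 were called higher. The fits shared 1 estimate of the spread. When each pair of groups was fitted alone, 19 of 52 higher genes (36.5%) and 31 of 63 lower genes (49.2%) were called again in the same direction.

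Cdcp1 was the gene of the decreased set with the largest fall in DEN-treated livers, from 283, 228 and 288 in DEN_WT to 22, 14 and 12 in DEN_KO (-4.01, adjusted p = 4.6e-05). Pla2g4b had 161, 204 and 185 in DEN_WT and 25, 24 and 21 in DEN_KO (-2.92, adjusted p = 0.00015). For both genes the genotypes were again apart in 6 other mice. The genes Dct, Crym, Adamts15, Disp2, Arhgef10, Ankrd55 and Fam129c of the decreased set were also lower in DEN_KO, as were Igtp (-1.44, adjusted p = 0.0019), Irgm2 (-0.76, adjusted p = 0.0052), Rtp4 (-1.23, adjusted p = 0.0022) and Tgfbr2 (-1.71, adjusted p = 0.00017). Of the increased set, Abcb1b (1.35, adjusted p = 0.011) and Rsph3b (1.23, adjusted p = 0.011) were higher again.

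**Figure D5:**
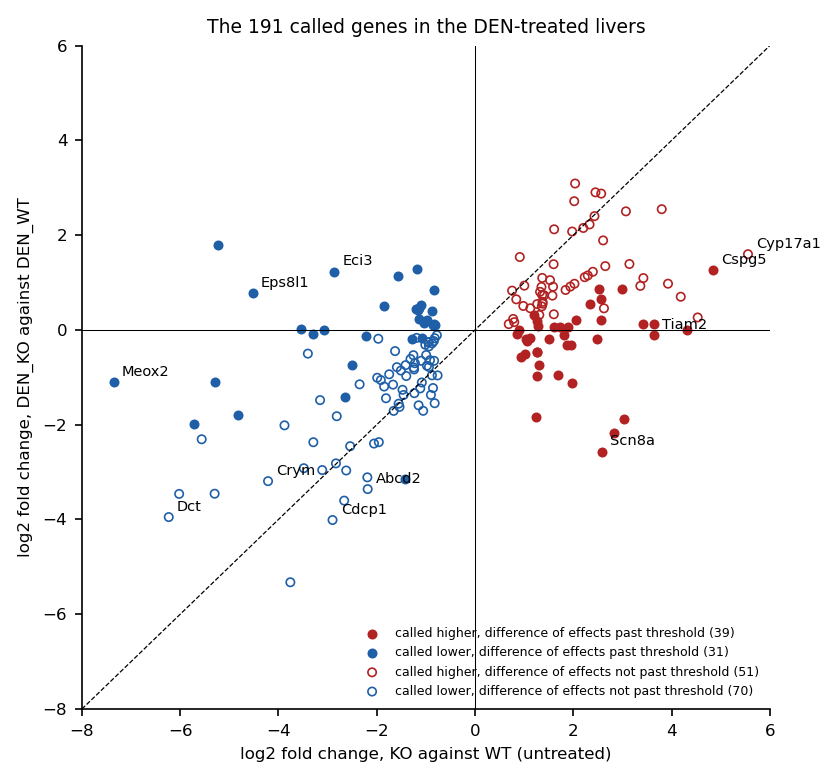
Log2 fold change of DEN_KO against DEN_WT (vertical axis) against that of KO against WT (horizontal axis) for the 191 called genes, with the line of equality dashed. Filled points are the 39 higher and 31 lower genes whose effects differed between untreated and DEN-treated livers at an adjusted p below 0.05 (16.6% of all tested genes did), open points the others. The 191 were selected on their untreated effect, which is part of this difference, so the 16.6% is not a like background. Scn8a lies at 2.58 and -2.57, and Meox2 at -7.35 and -1.11.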

How the data were processed

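RNA from 12 livers (3 per group) was analysed. The labels' protocols give bead isolation of mRNA, RNase III fragmentation and Ion Proton sequencing. The submitters' processing notes list TopHat2 2.0.9, Bowtie2, Cufflinks, cutadapt, DESeq and build mm9, with no role or order stated. How reads were counted, with or without strand, and the annotation release were not given in the sources used here. What the authors deposited as a score per gene and library is a normalized read count rounded to whole numbers. The 12 per-library files equal the series table, and sums ran from 22320634 to 28973396 across libraries. Because the values are scaled, genes carry no counting interval, and precision is the spread over 3 mice. The lowest chi-square per degree of freedom between replicates of a group was 52.0, so no library looks to be deposited again. The deposited peak lists (coordinates, DEN-treated livers) hold 1 list per group, and whether replicates were pooled is not stated. The GC fraction of each gene is the one in the authors' table, and promoter sequences are from RefSeq.

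The test was limma 3.58.1 (R 4.3.3) on log2(value + 1), a scale that understates changes of low genes. Genes that reach 10 in 3 or more libraries entered 1 fit of the 4 groups, with a trend in the variance and Benjamini-Hochberg adjustment over all 16471 genes. A gene is called at an adjusted p below 0.05. The contrasts were KO against WT, DEN_KO against DEN_WT and their difference. An exact permutation test of 3 against 3 cannot go below p = 0.10, so single genes have the model-based p only. Lists are described by counts and medians. The code was tested on simulated data.

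Named genes were Smyd3, the 14 largest changes in each direction among called genes with a mean of at least 50 in the higher group and no overlap between groups (predicted genes, pseudogenes and small RNAs left out), up to 3 members of each list by smallest p, and called genes within 10 Mb of Smyd3. One result of this rule is not reported here. Of the 28 genes of the largest changes, 16 matched a RefSeq promoter by symbol. The members and lists were chosen with earlier results of these data known. Alternatives were other pseudocounts, filters, variance models, scalings, a replicate block and each library left out. RNA polymerase II and input libraries were not analysed here.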

Additional observations from a re-analysis of the deposited data

Results flagged for a closer look

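For 12 named genes that were called in untreated livers, the effect of Smyd3 loss differed between DEN-treated and untreated livers at an adjusted p below 0.05 in limma, as 2727 genes of all tested did (16.6%). Values below are the log2 effect in DEN-treated livers minus that in untreated livers. These genes were named for their effects in untreated livers, which are part of the difference, so the 16.6% is not a like background.

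The sodium channel gene Scn8a reversed. It was at 679, 1219 and 1231 in DEN_WT and at 175, 236 and 117 in DEN_KO, so KO was lower there, whereas it was higher in untreated livers. The difference of the effects was -5.15 (adjusted p = 0.00036).

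Among the decreased genes the differences were 6.25 for Meox2 (adjusted p = 0.0045), 5.30 for Eps8l1 (0.0066), 4.10 for Eci3 (0.0032), 3.72 for Ankrd55 (0.0026), 2.36 for Ces1g (0.0088) and 1.60 for Nr1h4 (0.0088). Meox2 and Eps8l1 did not exceed 9 in any DEN-treated liver of either genotype. Eci3 was at 45, 32 and 10 in DEN_WT and 61, 63 and 53 in DEN_KO. Ankrd55 remained lower in DEN_KO, at 4, 10 and 14 against 49, 25 and 39.

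Among the increased genes the differences were -3.76 for Tiam2 (adjusted p = 0.011), -3.57 for Cspg5 (0.014), -2.14 for Ube2u (0.029), -1.91 for Dclk3 (0.045) and -1.78 for Pik3c2b (0.034). Cspg5 was at 44, 69 and 40 in DEN_WT against 8, 1 and 10 in WT. Tiam2 was at 132, 287 and 242 in DEN_WT and 267, 64 and 418 in DEN_KO, where the genotypes overlapped.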

How the results depend on the processing

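The number of called genes was the result most open to the processing. A fit of the 6 untreated libraries alone gave 52 higher and 63 lower genes, a fit without the variance trend 50 and 54, estimated library weights 1192 and 1418, scaling to equal sums 110 and 59, quantile normalization 67 and 69, and no filter on low values 64 and 80. Leaving out 1 library gave 27 to 262 higher and 33 to 298 lower genes. Smyd3 passed the threshold with a pseudocount of 5 (log2 fold change -1.55, adjusted p = 0.032) and with library weights (-1.54, adjusted p = 0.016), and ranged from -1.89 to -1.53 with 1 library left out (adjusted p 0.065 to 0.25). Under all 17 settings 18 higher and 27 lower genes were called.

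Replicate numbers did not pair the livers (correlations of the deviations of same-numbered WT and KO livers 0.0013, -0.038 and -0.096), and a fit with the replicate number as a block gave 72 and 80 genes. Among uncalled list members, Cela1 (0.10) with library weights, Fabp4 (-0.16) and Ighg2b (0.18) with library weights and Car3 (0.19) with quantile normalization changed sign, and with 1 library left out Cela1 ranged from -0.43 to 0.17 and Fabp4 from -0.14 to 0.53. With the gene start inside a region in place of within 1 kb, 51.1% of higher genes had a WT H3K4me3 region and 56.7% a KO one. The share of called genes with a called neighbour, chosen after seeing the data, was 23.6% within 0.5 Mb and 44.0% within 2 Mb, against 13.1% and 32.4% of all tested genes. The cause of these changes was not tested. Rounded, scaled values limit genes below about 10, for which 1 unit is a large step on the log2 scale.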

Other observations

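Il22ra1, Tnfsf10 and Cxcl1 also passed the test and were chosen after their values were seen. Il22ra1, the receptor subunit for interleukin-22, was at 39, 26 and 37 in WT and 123, 134 and 124 in KO (log2 fold change 1.89 ± 0.26, adjusted p = 0.0032 in limma). Tnfsf10, the death ligand TRAIL, was at 261, 373 and 255 in WT and 94, 116 and 88 in KO (-1.55 ± 0.23, adjusted p = 0.0047). Both calls stood without any one of the 6 libraries. Cxcl1, a neutrophil chemokine, was at 129, 215 and 191 in WT and 68, 16 and 63 in KO (-2.06 ± 0.42, adjusted p = 0.035), and its call was lost without WT replicate 2 or WT replicate 3 (adjusted p up to 0.16). Tnfsf10 was also lower in DEN-treated KO livers (-1.56, adjusted p = 0.00033), whereas Il22ra1 had a log2 fold change of 0.07 there (adjusted p = 0.86).

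Of the 191 called genes, 18 were pseudogenes (9.42%, against 10.3% of all tested genes), and 69 overlapped another gene of the table. The share of all tested genes with such an overlap was not determined, so the 69 cannot be read as a trait of called genes. Among those named above without a mark, Arhgef10, Eci3, Sema3e, Abcb1b, Ube2u and Dusp12 also had an overlapping gene on the opposite strand. The pseudogene Rps2-ps10 was at 5505, 3753 and 3359 in WT and 374, 306 and 856 in KO (-3.15 ± 0.42, adjusted p = 0.0029). Gm13394, another pseudogene, was at 5389, 6127 and 4807 in WT and 787, 426 and 1356 in KO (-2.81 ± 0.35, adjusted p = 0.0018). Whether reads of near-identical copies were assigned to these loci was not tested.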
